A study of Mus musculus with 9 samples.

Results

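Many inflammatory mRNAs are short-lived because proteins bind them and hand them to the degradation machinery. The genes described here encode 7 factors of mRNA decay, some of which bind such mRNAs directly. They are Zfp36, Zfp36l1, Zfp36l2, Btg1, Btg2, Tob1 and Zc3h12a, taken by name from the 46517 genes of the expression table. All 7 passed the filter on low values that left 7794 genes for testing. Neutrophils had been sorted from the bone marrow, blood and tumor of C57BL/6 mice bearing pancreatic ductal adenocarcinoma, on day 27 after orthotopic transplantation of tumor cells, with 3 RNA-seq libraries per compartment and 9 in all. The host mice were wild type and the transplanted cells were the 1242 L line, which came from a genetically engineered mouse model of the disease and expressed luciferase. The age of the hosts is not given in the sources used here, and males and females were used. Cells of the 3 compartments shared the gate Dapi-, CD45+, Lin- (CD3, B220, NK1.1) and Ly6G+ Ly6C+, except that the marrow columns are labelled Ly6G high. For each library cells of 5 mice were pooled, and each compartment was sampled in 3 independent experiments. All groups carried a tumor, so no comparison with tumor-free mice was made. The tumors alone were digested with collagenase IV and DNase I for 30 min at 37 °C, so the tumor compartment and the enzymatic digestion cannot be told apart.

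ZFP36 (tristetraprolin) and its paralogues ZFP36L1 and ZFP36L2 are CCCH zinc finger proteins that bind AU-rich elements in the 3′ untranslated region (3′ UTR) and recruit the CCR4-NOT deadenylase, which shortens the poly(A) tail. BTG1, BTG2 and TOB1 belong to an antiproliferative family that contacts both the deadenylase subunits CNOT7 and CNOT8 and poly(A)-binding protein, and so speeds up deadenylation. ZC3H12A (Regnase-1) is an endoribonuclease that cuts stem-loops in the 3′ UTRs of cytokine mRNAs. In myeloid cells ZFP36 and ZC3H12A limit the output of TNF, IL-1β, IL-6 and neutrophil-attracting chemokines.

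The AU-rich heptamer TATTTAT, written here in DNA letters, is the core of the sequence that the ZFP36 proteins bind. It is found in the 3′ UTRs of some of the decay factors themselves as well as in those of their targets. The stretches of 30 bases below, with each heptamer in capitals, hold the densest group of heptamers in each of the 4 factors that have any, and in Tnf and Cxcl2 for comparison. Tnf and Cxcl2 were chosen with their values known.
Zfp36: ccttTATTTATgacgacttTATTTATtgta
Zfp36l1: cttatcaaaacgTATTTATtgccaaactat
Zfp36l2: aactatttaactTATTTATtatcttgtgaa
Btg2: aaaatgaagagcTATTTATacatgtttttt
Tnf: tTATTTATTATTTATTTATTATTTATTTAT
Cxcl2: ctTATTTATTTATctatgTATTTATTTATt
In GRCm38 these lie at chr7:28376958-28376987 (Zfp36), chr12:80108422-80108451 (Zfp36l1), chr17:84184914-84184943 (Zfp36l2), chr1:134077249-134077278 (Btg2) and chr17:35199678-35199707 (Tnf), all on the minus strand, and at chr5:90905325-90905354 on the plus strand (Cxcl2). All are 3′ UTR sequence in GENCODE M21, where the longest 3′ UTR of each gene was searched on the transcribed strand and overlapping copies were counted.

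Each of the 3 Zfp36 family members held 3 heptamers, Btg2 held 1, and the letters were not found in the 3′ UTRs of Btg1, Tob1 and Zc3h12a. Among the 3′ UTRs of 20971 genes, 27.5% held at least 1 copy. Length matters for such a count. For Zfp36, whose 3′ UTR has 774 bases, 19.8% of the 2664 3′ UTRs of like length (0.8 to 1.25 times as long) held a copy and 1.24% held as many as 3. For Zfp36l1 (1835 bases) 4.25% and for Zfp36l2 (1822 bases) 4.22% of 3′ UTRs of like length held as many. Btg2 (2199 bases) was not unusual on this measure, since 43.5% of 3′ UTRs of like length held a copy. Btg1 had the longest 3′ UTR of the 7, with 4166 bases, and no copy, where 60.8% of 3′ UTRs of like length held one. Of 14 mRNAs known as targets of ZFP36 or Regnase-1, 13 held the heptamer, with 8 copies in Tnf, 7 in Cxcl2 and 9 in Csf2. A match is a description of the letters and not a measured binding site.

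**Figure D1:**
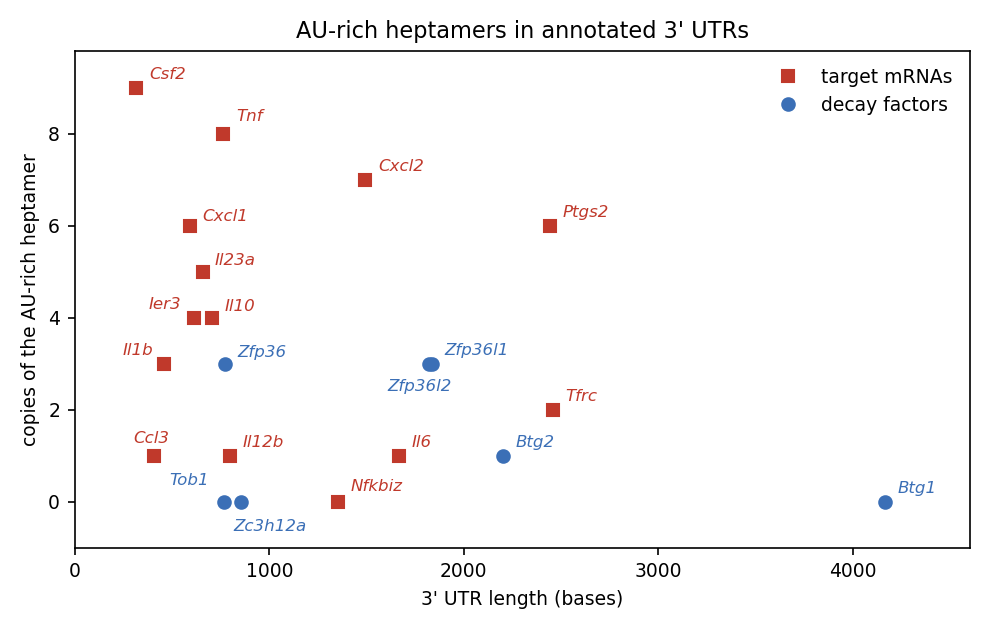
Copies of the AU-rich heptamer in the longest annotated 3′ UTR (vertical axis) against the length of that 3′ UTR in bases (horizontal axis), for the 7 decay factors (blue circles) and 14 known target mRNAs (red squares). The Zfp36 family members sit at 3 copies, below the 6 to 9 copies of Tnf, Csf2, Cxcl1, Cxcl2 and Ptgs2, and Btg1, Tob1, Zc3h12a and Nfkbiz sit at 0.

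Reads assigned to genes numbered 7108871 to 7949367 per bone marrow library, 4580807 to 6830374 per blood library and 5446499 to 6969557 per tumor library, as recovered from the deposited log2 FPKM values. FPKM are read counts scaled by gene length and library size. Correlations of log2 FPKM were 0.875 to 0.933 between libraries of a compartment and 0.415 to 0.793 between compartments. Neutrophil genes were present throughout, with a summed level of 10 markers of 75047 to 77277 reads per 1000000 assigned reads (RPM) in the marrow, of 32961 to 33533 in the blood and of 13271 to 16494 RPM in the tumor libraries. The tumor libraries also held RNA of other cells. The sum of 8 markers of pancreatic tumor epithelium was 2727 to 5840 RPM in tumor, against 8.02 to 10.9 in bone marrow and 21.4 to 141 in blood. All 8 acinar markers (676 to 2818 RPM) and all 7 fibroblast markers (1105 to 1361 RPM) were detected in every tumor library, and these sums were at most 9.99 RPM elsewhere. Markers of neutrophil precursors summed to between 1280 and 1926 RPM in bone marrow. Their sums were 96.1 to 171 RPM in tumor and 27.7 to 38.4 RPM in blood, so the compartments did not overlap in these sums. In tumor the cell cycle genes Mki67 (237 to 371 reads) and Top2a (347 to 639 reads) held most of the sum. Mpo had 33 to 43 reads there, Prtn3 11 to 34, Elane 10 to 31 and Ctsg 0 to 4. Against blood, Top2a and Elane were called higher in tumor, while Mpo, Prtn3, Ctsg and Mki67 were not. Markers of monocytes and macrophages summed to 1261 to 1430 RPM in blood, where bone marrow had 388 to 400 and tumor 508 to 642. In blood Csf1r held most of that sum (4796 to 6885 reads), and the markers did not share 1 direction. Against blood, Csf1r and Apoe were called lower in tumor and C1qb higher (log2 fold change 1.04, limma adjusted p = 0.0397). Platelet markers summed to 629 to 843 RPM in blood against at most 12.8 elsewhere. The part of these cells in any difference below was not tested. In such bulk samples fewer cells of a type and less RNA per cell cannot be told apart.

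Zfp36 had the highest FPKM of the 7 genes in every library, and its tumor level exceeded that of bone marrow and of blood. Zfp36 (ENSMUSG00000044786.5, chr7:28376784-28380253, minus strand) measured 9.28, 8.996 and 8.63 log2 FPKM in the 3 bone marrow libraries and 9.14, 8.74 and 8.91 in the blood libraries. In tumor it measured 10.44, 10.61 and 10.24. The tumor libraries lay above all 6 others, whereas bone marrow and blood overlapped. In tumor its 21279 to 29262 reads placed Zfp36 at rank 13 to 15 of all genes by FPKM, and at rank 32 to 44 in blood and 29 to 37 in bone marrow. This order rests on a length of 2472 bases behind its FPKM, where the exons of GENCODE M21 cover 3470. Its level in tumor was 2.83-fold that in blood (log2 fold change 1.501, SE 0.20, limma adjusted p = 0.000327) and 2.75-fold that in bone marrow (1.46, SE 0.20, limma adjusted p = 0.000459). Blood and bone marrow differed by -0.04 on the log2 scale (95% interval -0.50 to 0.42, limma adjusted p = 0.896).

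The paralogues of Zfp36 were far lower and did not share its pattern. Zfp36l1 (ENSMUSG00000021127.6, chr12:80107754-80113013, minus strand) measured 1.39, 1.30 and 0.79 log2 FPKM in bone marrow, from 60 to 92 reads. It measured 3.51, 3.99 and 3.71 in blood and 3.90, 4.08 and 3.78 in tumor. All bone marrow libraries lay below the other 6, and blood and tumor overlapped. Zfp36l1 was 5.96-fold higher in blood than in bone marrow (log2 fold change 2.58, SE 0.19, limma adjusted p = 5.05e-05) and 6.76-fold higher in tumor than in bone marrow (2.76, limma adjusted p = 1.57e-05). The difference between tumor and blood was 0.18 (95% interval -0.26 to 0.62, limma adjusted p = 0.436), and the call depended on the scaling between libraries, as described below.

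Zfp36l2 (ENSMUSG00000045817.8, chr17:84183931-84187947, minus strand) measured 4.45, 4.09 and 4.16 log2 FPKM in bone marrow, 4.05, 4.10 and 5.02 in blood and 4.14, 5.14 and 4.68 in tumor. The 3 compartments overlapped, with blood replicate 3 and tumor replicate 2 the highest. It was the single member whose F-test over the 3 compartments missed the threshold (limma adjusted p = 0.487), while 73.6% of all tested genes passed that test. The difference of tumor from blood was 0.26 with a 95% interval of -0.49 to 1.02, which does not exclude a change of the size seen for several other members.

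The BTG and TOB genes went in different directions from each other. Btg2 (ENSMUSG00000020423.6, chr1:134075170-134079120, minus strand) measured 7.97, 8.13 and 7.78 log2 FPKM in bone marrow and 8.05, 8.17 and 8.08 in blood. In tumor it reached 9.36, 9.75 and 9.14, above all other libraries. Read counts were 4139 to 6602 outside the tumor and 16125 to 25757 within it. Btg2 in tumor was 2.49-fold its level in blood (log2 fold change 1.32, SE 0.17, limma adjusted p = 0.00027) and 2.75-fold that in bone marrow (1.46, limma adjusted p = 0.000194), and blood differed from bone marrow by 0.14 (95% interval -0.25 to 0.53).

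Btg1, the closest paralogue of Btg2, was lowest in bone marrow and, in the deposited values, highest in blood. Btg1 (ENSMUSG00000036478.7, chr10:96617006-96622809, plus strand) measured 6.51, 6.32 and 6.19 log2 FPKM in bone marrow, 7.92, 7.77 and 7.98 in blood and 7.36, 7.65 and 7.18 in tumor. No compartment overlapped another in these values. In RPM the tumor libraries had 1091, 1267 and 1026 and the blood libraries 1215, 1039 and 1234, which overlap. Btg1 was 2.92-fold higher in blood than in bone marrow (log2 fold change 1.55, SE 0.14, limma adjusted p = 0.000136) and 2.07-fold higher in tumor than in bone marrow (1.05, limma adjusted p = 0.000458). From blood to tumor it fell by 29.0% (log2 fold change -0.49, SE 0.14, limma adjusted p = 0.0164), a call that depended on the scaling, as described below.

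Tob1, which links poly(A)-binding protein to the deadenylase, was the member that was lowest in tumor. Tob1 (ENSMUSG00000037573.5, chr11:94211454-94215495, plus strand) measured 5.67, 5.48 and 5.24 log2 FPKM in bone marrow, 4.56, 4.75 and 5.57 in blood and 3.40, 4.22 and 4.35 in tumor. In these values every tumor library lay below every other library, and blood replicate 3 lay within the range of bone marrow. In RPM the tumor libraries had 48.5, 81.6 and 100 and the blood libraries 82.1, 89.0 and 162, which overlap. All bone marrow libraries lay above tumor in RPM too. From bone marrow to tumor Tob1 fell by 64.1% (log2 fold change -1.48, SE 0.33, limma adjusted p = 0.00581) and from blood to tumor it fell by 49.0% (-0.97, SE 0.33, limma adjusted p = 0.0313). Blood and bone marrow differed by -0.50 with a 95% interval of -1.26 to 0.25 (limma adjusted p = 0.25).

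Zc3h12a had the fewest reads of the 7 genes in every library, and its level differed between all 3 compartments. Zc3h12a (ENSMUSG00000042677.7, chr4:125118423-125127840, minus strand) measured -0.24, -0.27 and -0.83 log2 FPKM in bone marrow from 35 to 53 reads, 1.40, 1.39 and 1.28 in blood from 98 to 138 reads, and 1.88, 2.25 and 1.84 in tumor from 215 to 339 reads. The compartments did not overlap. The fold change was 3.49 between blood and bone marrow (log2 1.80, SE 0.20, limma adjusted p = 0.000324), 5.41 between tumor and bone marrow (log2 2.44, limma adjusted p = 3.56e-05) and 1.55 between tumor and blood (log2 0.63, SE 0.20, limma adjusted p = 0.0248). With 1 FPKM added to each value, the log2 fold changes against bone marrow shrank to 1.03 in blood and 1.52 in tumor, both still called.

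**Figure D2:**
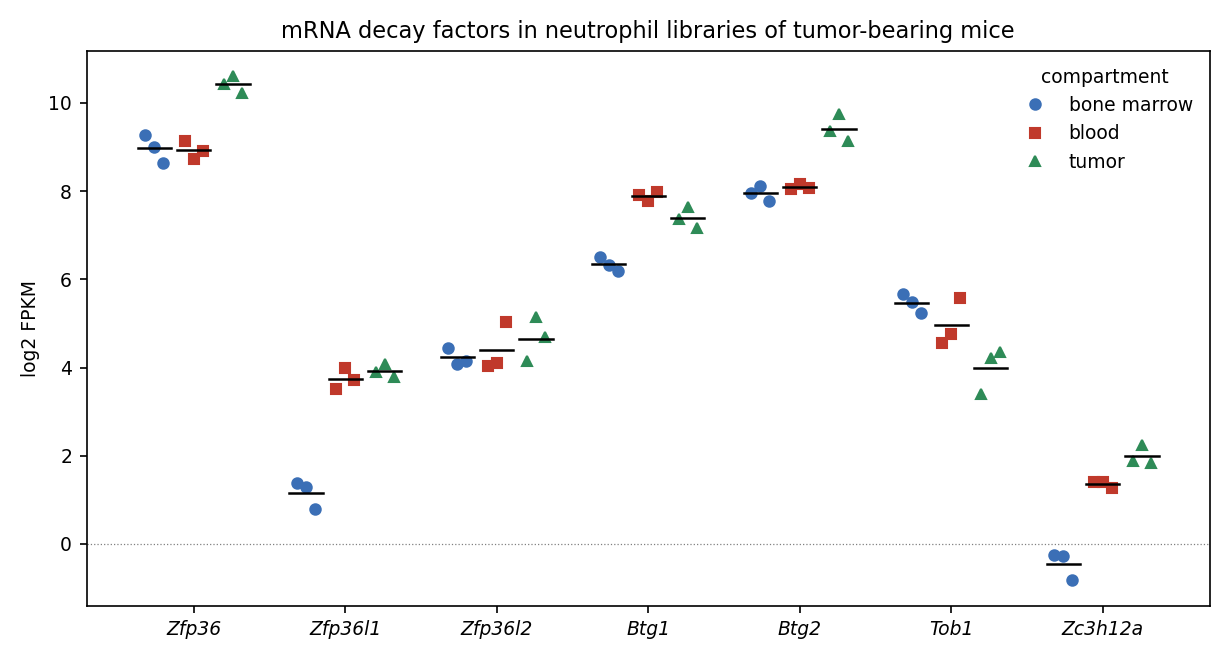
Deposited log2 FPKM (vertical axis) of the 7 decay factors in each library, with bone marrow as blue circles, blood as red squares and tumor as green triangles. Black bars are the means of 3 libraries. Zfp36 and Btg2 sit highest in tumor with bone marrow and blood alike in range, Zfp36l1 and Zc3h12a sit lowest in bone marrow, and Tob1 sits lowest in tumor.

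The members did not move together. Against blood, 3 of the 7 were higher in tumor (Zfp36, Btg2, Zc3h12a) and 2 lower (Btg1, Tob1), where 28.1% of all tested genes were called higher and 34.5% lower. Against bone marrow, 5 were higher in tumor (Zfp36, Zfp36l1, Btg1, Btg2, Zc3h12a) and Tob1 was lower, with 22.4% and 32.9% of tested genes called in those directions. Between blood and bone marrow, Zfp36l1, Btg1 and Zc3h12a were higher in blood and none was lower, with 20.6% of tested genes higher and 23.6% lower. Tumor exceeded both other compartments for Zfp36, Btg2 and Zc3h12a, as for 16.5% of tested genes, and lay below both for Tob1, as for 23.7%. These comparisons share libraries and are not independent of each other.

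The libraries were scaled very differently by the authors, which bears on all tumor comparisons. The scaling factors averaged 1.15 ± 0.069 (SD, n = 3) in tumor, against 0.841 ± 0.023 in blood and 0.840 ± 0.043 in bone marrow. With plain library totals in their place, the median of all tested genes in tumor moved up by 0.42 against either compartment, from -0.17 to 0.24 against blood and from -0.21 to 0.21 against bone marrow. Zfp36, Btg2 and Zc3h12a remained called higher in tumor under both scalings, with log2 fold changes against blood of 1.95, 1.77 and 1.08 by plain totals. Relative to the median of all genes under the deposited scaling, they stood at 1.67, 1.49 and 0.81. By plain totals Btg1 differed from blood by -0.05 (limma adjusted p = 0.768) and Tob1 by -0.52 (limma adjusted p = 0.202), so neither was then called lower in tumor than in blood, while 37.1% of tested genes were called higher and 24.6% lower. Zfp36l1 was then called higher in tumor than in blood (0.63, limma adjusted p = 0.00908) and Zfp36l2 higher in tumor than in bone marrow (0.88, limma adjusted p = 0.0496). Tob1 stayed lower in tumor than in bone marrow (-1.03, limma adjusted p = 0.0303), a comparison in which plain totals called 33.1% of tested genes higher and 21.2% lower.

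Single libraries also decided the smaller calls between tumor and blood. Without blood replicate 3, the limma adjusted p was 0.0547 for Btg1 and 0.0883 for Tob1, and without tumor replicate 1 it was 0.0895 for Tob1. For Zc3h12a it was 0.0514, 0.0547 and 0.0701 without blood replicates 1, 2 and 3 and 0.0796 without tumor replicate 2. The calls of Zfp36 and Btg2 in tumor held under all 22 alternatives of each comparison. Among the tumor libraries, replicate 3 held the highest sums of epithelial, acinar and fibroblast markers (5840, 2818 and 1361 RPM). In RPM, the unit of the marker sums, that library had the lowest tumor values of Zfp36, Zfp36l1, Btg1 and Btg2 and the highest of Tob1, though Zfp36l1 was close to replicate 1 (88.1 against 89.0). For Zfp36l2 (126 RPM) and Zc3h12a (41.1 RPM) it lay between replicates 1 (80.6 and 39.5) and 2 (154 and 48.6).

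**Figure D3:**
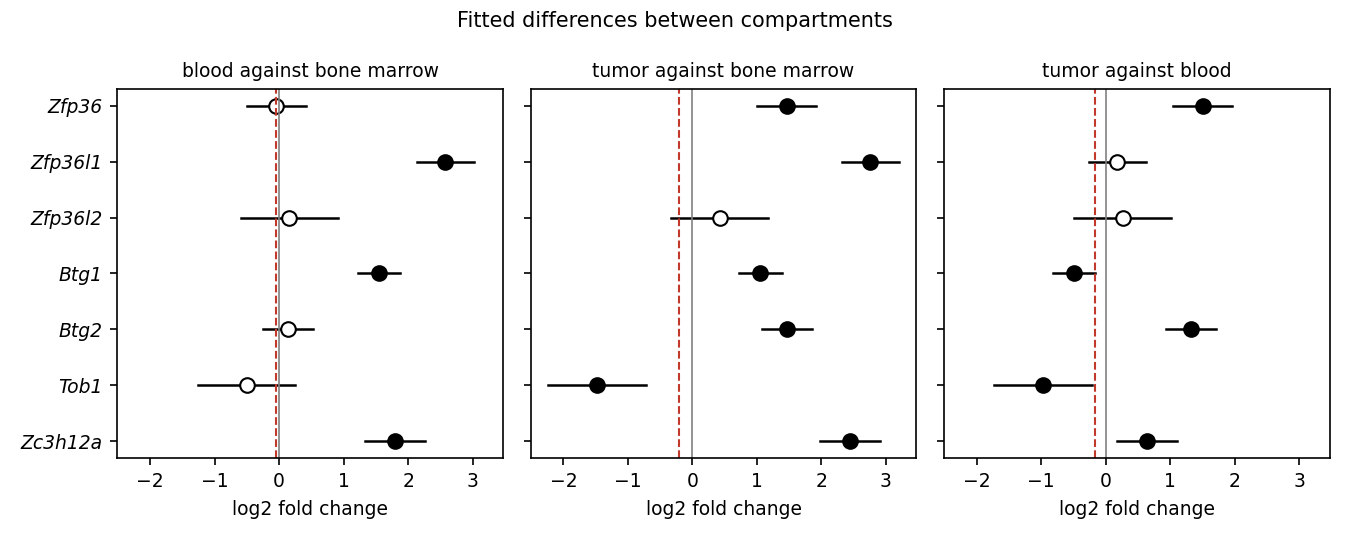
Fitted log2 fold changes (horizontal axis) of the 7 genes in the 3 comparisons, with 95% intervals as lines. Filled circles passed limma's adjusted p of 0.05, open circles did not, the grey line marks 0 and the dashed red line the median of all tested genes. Zfp36 and Btg2 are near 0 between blood and bone marrow and above 1 in both tumor comparisons, and Tob1 is the one member to the left of 0 throughout.

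The share of each paralogue within its family does not depend on the scaling between libraries. Shares were taken over reads per kilobase of merged exons in GENCODE M21. Most lengths behind the deposited FPKM were genomic spans, but for Zfp36 the merged exons cover its whole span of 3470 bases and the FPKM length was shorter. Zfp36 made up 94.6% ± 0.810 (SD, n = 3) of the Zfp36 family in tumor, against 93.3% ± 0.858 in bone marrow and 87.6% ± 3.20 in blood. These shares differed between compartments (exact permutation test of the F statistic, p = 0.00357, the smallest that 280 splits allow). Blood had the lowest share of Zfp36 in every library, 85.0 to 91.2%. From the deposited FPKM the mean shares were 97.1% for tumor, 95.9% for bone marrow and 93.1% for blood, a gap between tumor and blood of 3.97 percentage points instead of 7.01, with the same exact permutation p. Zfp36l1 accounted for 1.03%, 6.06% and 2.56% and Zfp36l2 for 5.63%, 6.34% and 2.84% in bone marrow, blood and tumor. Summed over the family, tumor had 1044 ± 118 reads per kilobase of exon and 1000000 reads of the authors' scaled library size, blood 398 ± 38.2 and bone marrow 388 ± 72.4.

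On this scale, which lowers Zfp36 relative to its FPKM, the ranges of Zfp36 and Btg2 overlapped, at 859 to 1115 and 812 to 1242 in tumor, 305 to 401 and 382 to 414 in blood, and in bone marrow at 282 to 443 and 317 to 403. In the BTG and TOB family, Btg2 was the main transcript in all compartments, at 82.1% ± 1.26 (SD, n = 3) of Btg1, Btg2 and Tob1 together in tumor, against 68.1% ± 2.65 in bone marrow and 55.4% ± 3.52 in blood. Btg1 held 36.6% ± 2.20 in blood, against 17.0% ± 1.43 in bone marrow and 15.5% ± 0.585 in tumor (exact permutation test of the F statistic, p = 0.0107). Tob1 went from 14.9% ± 1.31 in bone marrow through 7.99% ± 2.78 in blood to 2.46% ± 1.00 in tumor. In tumor all 3 libraries gave Tob1 at most 3.57% of the family, against at least 13.9% in bone marrow.

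**Figure D4:**
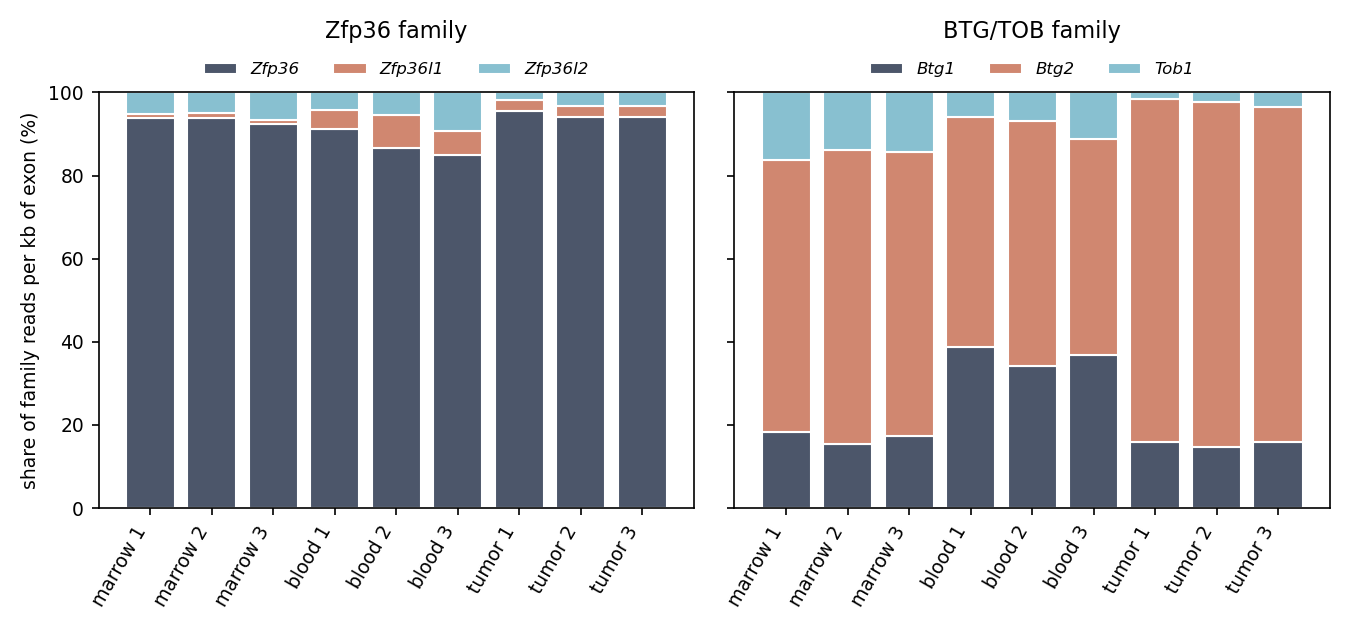
Share in percent (vertical axis) of each paralogue in its family's reads per kilobase of merged exons, stacked for each of the 9 libraries (horizontal axis, bone marrow shortened to marrow). Zfp36 fills at least 85.0% of its family everywhere, and Btg1 takes 34.3 to 38.7% of its family in blood but at most 18.3% elsewhere.

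The promoters of Zfp36 and Btg2, the 2 members with the highest FPKM in tumor, carry different motifs. RefSeq promoters (GRCm38.p6) were matched for 6 of the 7 members, all but Zfp36l2. The 250 bases before each start were searched on both strands for 8 motifs: the cAMP response element TGACGTCA and its shorter form TGACG, which it contains, the AP-1 site TGANTCA, the hypoxia response core ACGTG, the TATA box TATAAA and the letters CCAAT. The CArG box and the kB site complete the set. The Zfp36 promoter held a CArG box, the serum response factor motif, starting 58 bases before the start, as did 1.40% of 27025 promoters. The Btg2 promoter held the full cAMP response element starting 166 bases before the start, as did 1.62% of promoters. These 2 matches were picked, with the expression values known, from 8 motifs searched in 6 promoters. A match is not a measured binding site. Both stretches are shown with the motif in capitals.
Zfp36: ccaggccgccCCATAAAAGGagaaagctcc
Btg2: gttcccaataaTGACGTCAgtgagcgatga
They lie at chr7:28379267-28379296 and chr1:134079303-134079332, both on the minus strand, and the first also falls in an exon of a longer Zfp36 transcript. The Zfp36 window held none of the other 7 motifs. Btg2 also held CCAAT, found in 34.5% of promoters. The shorter form TGACG, found in 17.9% of promoters, occurred in Btg1 and Tob1 as well as in Btg2. TATAAA (13.0%) and CCAAT occurred in Zfp36l1, Btg1 and Tob1. The AP-1 letters occurred in Zfp36l1 (6.87% of promoters) and the hypoxia response core in Tob1 (16.6%), while Zc3h12a matched none of the 8.

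The genes with profiles most like each member over the 9 libraries were found by the root mean square difference of centred log2 FPKM. For Btg2 they were Pfkfb3, a glycolytic regulator (0.0732), and the lysosomal chloride transporter gene Clcn7 (0.130). For Zfp36 they were the stress transcription factor gene Atf4 (0.165) and again Clcn7 (0.166), and Btg2 itself stood at 0.204 from Zfp36. Zfp36l1 was nearest to Siglecf (0.213) and the interferon-induced Ifit3 (0.236), and Zc3h12a to the interleukin-10 receptor gene Il10ra (0.212) and Smox (0.213). Btg1 was nearest to Atp2b1 (0.175) and Furin (0.176), Tob1 to Gnb2 (0.141) and Fam160b1 (0.148), and Zfp36l2 to Rest (0.141). These distances are descriptions over libraries that share their compartments.

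The known targets of ZFP36 or Regnase-1 were higher in tumor along with Zfp36, Btg2 and Zc3h12a. Of the 14 targets, 10 passed the filter, and all 10 were higher in tumor than in blood (median log2 fold change 5.94) and than in bone marrow (median 5.33). The filter keeps genes expressed in 3 libraries, which favours genes seen in tumor alone. With no filter all 14 were tested, and 13 were higher than in blood and 11 higher than in bone marrow, where 23.2% and 18% of all genes were. Tnf had 3041 to 5276 reads in tumor, against 58 to 133 in blood and 204 to 245 in bone marrow. Cxcl2, a neutrophil-attracting chemokine, had 29983 to 52152 reads in tumor, against 125 to 203 in blood and 545 to 807 in bone marrow. Il23a, encoding a subunit of IL-23, had 471 to 954 reads in tumor and 0 in all 6 other libraries. Set against a floor of 3 reads per library, tumor exceeded blood at least 140-fold on the authors' scaled library sizes and at least 192-fold by plain totals. Cxcl1 had 260 to 979 reads in tumor and 2 reads in all blood libraries together, a ratio of 708 (95% exact counting interval 196 to 5848, plain totals). Between blood and bone marrow 3 targets were higher and 3 lower, beside 20.6% and 23.6% of all tested genes. They were headed by Il1b (log2 fold change 3.31, limma adjusted p = 6.86e-05) and by the transferrin receptor Tfrc (-2.48, limma adjusted p = 0.00133).

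Immediate early genes, a class to which Zfp36 and Btg2 also belong and which can rise during tissue digestion, moved with these differences. Of 13 listed, 10 were higher in tumor than in blood (median log2 fold change 2.78), where 28.1% of all tested genes were. Against bone marrow 11 were higher in tumor (median 3.51), where 22.4% of all tested genes were. None of the 13 was lower in either comparison. The summed level of the 13 genes reached 27230 to 31831 RPM in tumor, against 9301 to 9689 in blood and 4182 to 4896 in bone marrow. Egr1 had 15067 to 22414 reads in tumor, against 35 to 73 in blood and 108 to 193 in bone marrow (log2 fold change 7.94 against blood, limma adjusted p = 2.62e-06). The heat shock gene Hspa1a and the stress gene Atf3 were 6.99 and 6.93 higher than in bone marrow on the log2 scale, and Hspa1b had 29 to 45 reads in tumor and at most 1 elsewhere. Between blood and bone marrow, which were not digested, 7 of the 13 were higher in blood and 2 lower. Of all tested genes 20.6% were higher and 23.6% lower. The largest changes in the list were those of Atf3 (4.15) and Socs3 (3.08). The part of digestion in the tumor values of Zfp36 and Btg2 was not tested.

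The genes that control these proteins after translation were called in both directions, as all tested genes were. Of 9 listed, 7 passed the filter. Of these, 2 were higher and 1 lower in tumor than in blood, beside 28.1% and 34.5% of all tested genes. Against bone marrow 1 was higher and 2 lower in tumor, beside 22.4% and 32.9%. Mapk14, the p38α kinase upstream of ZFP36 phosphorylation, had 294 to 430 reads in tumor, against 1518 to 2418 in blood and 1471 to 1702 in bone marrow. On the log2 scale it fell by 2.98 from blood to tumor and was -2.31 in tumor against bone marrow (limma adjusted p = 2.52e-06 and 3.62e-06). Mapkapk2, the kinase that phosphorylates ZFP36, was 1.28 higher in tumor than in blood (limma adjusted p = 0.00298). Its homologue Mapkapk3 was lower than in bone marrow both in blood (log2 fold change -1.61) and in tumor (-1.60, limma adjusted p = 0.000111). Dusp1, the phosphatase that turns p38 off, was 1.93 higher in tumor and 1.44 higher in blood than in bone marrow.

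Other proteins that bind AU-rich elements or stem-loops had 8 of 16 genes tested. Of these, 2 were higher and 4 lower in tumor than in blood, beside 28.1% and 34.5% of all tested genes. The median of the 8 was -0.45 beside -0.17 over all genes. Zc3h12d, the Regnase family member related to Zc3h12a, passed the filter through blood alone. It had 58 to 86 reads in tumor and 292 to 481 in blood (log2 fold change -2.91, limma adjusted p = 1.16e-05), and was also lower in tumor than in bone marrow (-1.10, limma adjusted p = 0.00179). It was higher in blood than in bone marrow (1.81). Arid5a, whose product stabilises mRNAs that Regnase-1 cuts, was 2.02 higher in blood than in bone marrow and -1.87 in tumor against blood (limma adjusted p = 3.15e-05). Between blood and bone marrow 5 of the 8 were higher and 1 lower, beside 20.6% and 23.6% of all tested genes.

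The general machinery gave mixed results. Of the 11 CCR4-NOT genes found, 5 were tested. Of these, 2 were higher and 2 lower in tumor than in blood, beside 28.1% and 34.5% of all tested genes. Against bone marrow 3 were lower in tumor, beside 32.9%. Cnot7, a catalytic subunit that BTG and TOB proteins bind, had 513 to 802 reads in tumor, 82 to 123 in blood and 517 to 745 in bone marrow, so that tumor exceeded blood by 2.08 (limma adjusted p = 0.000201) and blood fell below bone marrow (-2.16, limma adjusted p = 0.000381). Rqcd1, an older name of the CNOT9 gene, had log2 fold changes of 0.92 and -1.47 in the same comparisons, and Cnot3 and Cnot8 were lower in tumor than in bone marrow (-0.81 and -0.63). Of the other BTG and TOB genes only Tob2 was tested, and it was 0.59 higher in tumor than in blood (limma adjusted p = 0.0314).

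Among PAN2-PAN3, PARN and poly(A)-binding protein genes 3 of 7 were tested. Pabpc1, the main cytoplasmic poly(A)-binding protein, was 0.64 higher and its inhibitor Paip2 was lower (-1.07) in tumor than in blood, and both had the same direction against bone marrow (0.44 and -0.44). Paip2 was 0.64 higher in blood than in bone marrow. By plain totals the median of all genes in tumor against bone marrow moved up by 0.42, which is the size of the changes of Pabpc1 and Paip2 in that comparison. A move up adds to the change of Pabpc1 and takes from that of Paip2. Between blood and bone marrow the median moved by 0.003. Of 17 decapping genes 7 were tested. In tumor against blood Lsm6 was higher (1.96) and the helicase gene Ddx6 lower (-1.66), 1 each, beside 28.1% and 34.5% of all tested genes. Against bone marrow 2 were lower in tumor, Edc3 (-0.71) and Eif4enif1 (-0.56), beside 32.9%. Lsm6 and Ddx6 had log2 fold changes of -2.06 and 1.52 in blood against bone marrow. Of 15 exosome and SKI genes found, 9 were tested. Of these, 5 were higher and 1 lower in tumor than in blood, beside 28.1% and 34.5% of all tested genes. Between blood and bone marrow 1 was higher and 5 lower in blood, beside 20.6% and 23.6%. Exosc1 and Exosc2 averaged above 0 log2 FPKM in tumor alone, and Exosc2 passed the filter through tumor alone. With no filter 11 of the 15 were higher in tumor than in blood, where 23.2% of all genes were, and 2 were higher than in bone marrow, where 18% were. Edc3 and Lsm6 averaged above 0 log2 FPKM in bone marrow alone. Of the target and immediate early lists, Cxcl1, Il23a, Fosb and Hspa1b passed the filter through tumor alone. Exosc9 had 7 to 18 reads in blood against 66 to 143 in bone marrow and 133 to 234 in tumor (log2 fold change 3.22 against blood), and Exosc1 was next (2.73). Both were lower in blood than in bone marrow (-2.61 and -1.99). The helicase gene Skiv2l was lower in tumor than in bone marrow (-0.98, limma adjusted p = 6.45e-05), and Exosc2 higher (1.88, limma adjusted p = 0.00906).

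**Figure D5:**
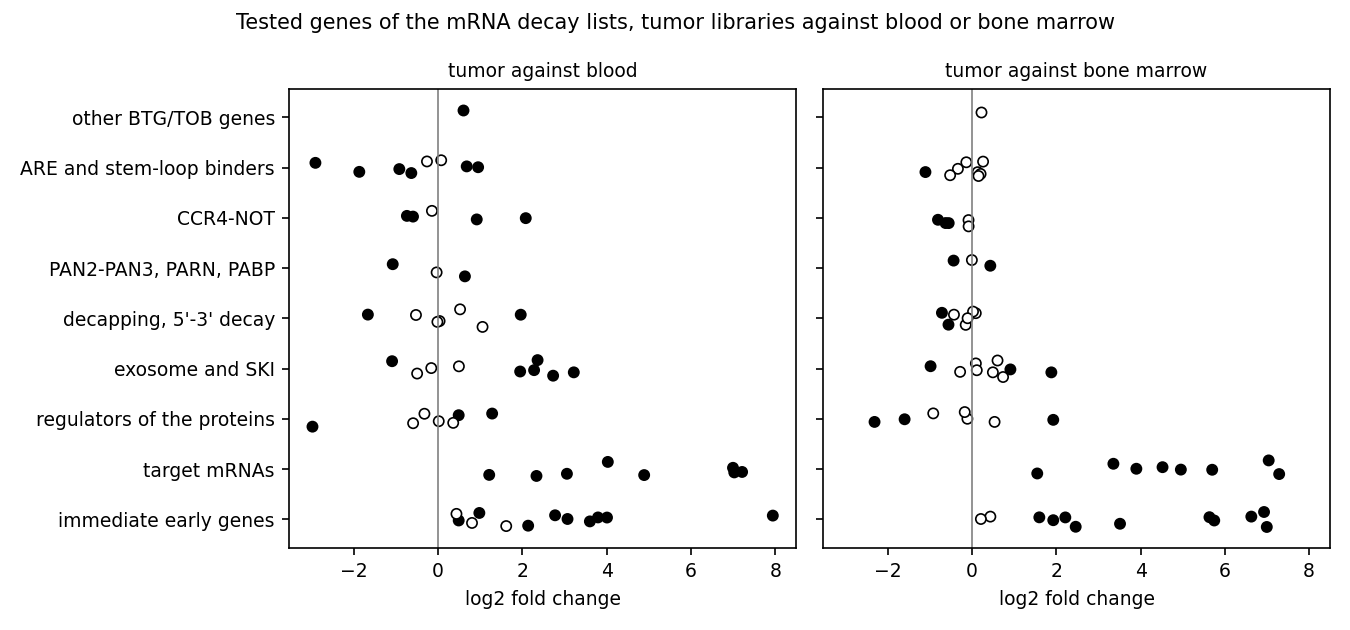
Fitted log2 fold changes (horizontal axis) of the tested genes of 9 lists (rows) in tumor against blood (left) and tumor against bone marrow (right). Filled circles passed limma's adjusted p of 0.05 and open circles did not, and Il23a, Cxcl1 and Hspa1b, with at most 2 reads in every library outside the tumor, are left out. Target mRNAs and immediate early genes lie to the right of 0, and the decay machinery lies on both sides of it.

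Few reads were assigned to near-identical copies of the members, which does not show how many reads were shared with them. Zfp36l1-ps had at most 2 reads in any library, and Btg1-ps1, Btg1-ps2 and Zfp36l3 had 0. The gene Gm26669, which overlaps Zfp36l1 on the other strand, had 0 to 14 reads per library, and whether reads were counted by strand is not given in the sources used here.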

How the data were processed

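Neutrophil RNA was amplified from 9 pools with SMARTSeq v2 and sequenced in pairs. Per the submitters' processing notes and the study's methods, reads were aligned to GRCm38/mm10 with STAR 2.5.2b and assigned to GENCODE genes with featureCounts 1.5.0, and edgeR 3.8.6 was listed. The authors deposited log2 FPKM values per gene and library, with no raw counts used here. Whole reads were recovered from the steps of these values for all 46517 genes (tolerance 0.01 reads), together with the length used, which equalled the gene's span in GENCODE M21 for 39046 of 46005 matched genes. FPKM across genes therefore carries that length, and intervals on reads cover counting error only, since reads have no molecular identifiers.

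The main test was limma 3.58.1 (R 4.3.3, lmFit and eBayes with an intensity trend) on the deposited log2 FPKM of 7794 genes above 0 in at least 3 libraries. It fitted 3 comparisons with Benjamini-Hochberg adjustment at 0.05 and no further pseudocount. Fold changes are on this log2 scale. The deposited values hold a small constant (0.22 reads in a library of mean size), so fitted changes of genes with few reads depend on it. In each comparison 22 alternatives were tried: filters, pseudocounts of 1 and 0.1, scalings, variance settings, a replicate block, limma-voom on recovered reads, 2 compartments only, and each library left out. Scripts were tested on simulated data. Python 3.11.15 was used for the rest. Marker sums are RPM of the recovered reads.

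The members, gene lists and markers were chosen with earlier results of these data known. Named are the 7 members, the 2 genes of each list with the largest absolute log2 fold change past the threshold in each comparison, the 2 nearest profiles of each member, and a few others, such as Tnf and Cxcl2, chosen after their values were seen. A few items are not reported here. The libraries carry replicate numbers 1 to 3 in each compartment.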

Additional observations from a re-analysis of the deposited data

How the results depend on the processing

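Of the values of single genes under other settings, 439 kept direction and call, 12 lost a call, 3 gained one and 5 changed sign. Of the counts, 265 stayed within 1.5 times and 21 did not. The sign changes all concerned uncalled differences between blood and bone marrow: Zfp36 was 0.018 with median centring and -0.21 to 0.12 with a library left out (0.05 without blood replicate 2, 0.12 without bone marrow replicate 1), Btg2 was -0.12 with quantile normalization, and Zfp36l2 was -0.16 to 0.33 with a library left out (-0.16 without blood replicate 3). The 2 members lower in tumor than in blood became 0 with quantile normalization, 0 with plain library totals and 1 with only the 2 compartments fitted, and 0 to 2 with a library left out (0 without blood replicate 3, 1 without tumor replicate 1). Quantile normalization gave Btg1 -0.19 (limma adjusted p = 0.195) and called Zfp36l1 higher (0.55, limma adjusted p = 0.0235). Fitting only 2 compartments left Tob1 at a limma adjusted p of 0.067. A pseudocount of 1 FPKM lowered Zc3h12a to 1.03 in blood and 1.52 in tumor against bone marrow, as adding a constant shrinks the folds of low genes. The other causes were not tested. Over all genes, those higher in tumor than in blood numbered 5534 with no filter, 5740 with the filter on reads, 5871 by limma-voom and 918 with the stricter filter, against 2194, and 1644 were lower with the stricter filter, against 2686. Against bone marrow 4284, 4469, 5192 and 849 were higher in the same order, against 1745, and 1529 (stricter filter) and 1654 (plain totals) were lower, against 2566. Between blood and bone marrow 1036 (stricter filter) and 2449 (limma-voom) were higher, against 1605, and 888, 2890 (filter on reads) and 2912 (limma-voom) lower, against 1841. These filters tested 3514 to 23861 genes, and Zc3h12a was not among those left by the stricter one. With the replicate number as a block, 2167 genes were higher and 2684 lower in tumor than in blood. No member's call changed in any comparison. Residuals of same-numbered libraries correlated between -0.0714 and 0.108, with 1 of 9 pairs above 0.1. The paper describes the compartments as coming from the same mice. With 3 libraries per compartment, these correlations cannot show whether the numbers pair the samples. Zc3h12a in bone marrow rests on 35 to 53 reads per library.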
